A study of Mus musculus with 6 samples.

Results

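*Pgrmc1* and 7 genes of its own family and of the cholesterol pathway were examined in mouse morulae in which the transcription factor YY1 had been depleted. The 8 genes were taken by name from the 55364 genes listed, and 17353 genes, all 8 among them, passed the filter on low values. *Pgrmc1* was selected on its TPM values, which were much lower in *Yy1* knockdown (KD) morulae, so its own difference is a description and has no test. The other 7 genes are its paralog *Pgrmc2*, the enzyme genes *Hmgcs1*, *Idi1*, *Sqle* and *Cyp51*, and the regulators *Srebf2* and *Insig1*. The 6 libraries came from BDF1 x BDF1 embryos made by in vitro fertilization and cultured in KSOM. Zygotes of the control KD group (3 libraries) were injected with a control siRNA, and those of the *Yy1* KD group (3 libraries) with an siRNA directed at *Yy1*. Each library held 10 pooled morulae, collected 64 h after insemination, and the sex of the embryos was not given. The siRNA entered the whole zygote, and some *Yy1* mRNA was left: *Yy1* was at 8.32 to 8.90 TPM in the KD libraries, against 89.8 to 100.2 TPM in the controls.

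Cholesterol is built from acetyl-CoA through the mevalonate pathway, which yields isoprenoid units, and then through squalene and a series of sterols. Cells adjust the pathway through SREBP2, a membrane-bound transcription factor that SCAP escorts to the Golgi when sterols are low and that INSIG proteins hold back in the endoplasmic reticulum when sterols are plentiful. PGRMC1 is a heme-binding protein of the endoplasmic reticulum in the membrane-associated progesterone receptor (MAPR) family, which shares a fold with cytochrome b5. It binds cytochrome P450 enzymes, among them CYP51, a sterol demethylase of the cholesterol pathway.

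The values are TPM (a transcript abundance), in which read pairs are divided by the exon length of the gene and scaled to the same sum in every library. Multiplying TPM by exon length gave back 11793509 to 24417789 read pairs per library, with the most in control KD replicate 2 and the fewest in *Yy1* KD replicate 3. Of 10 markers of the early embryo, all 10 were measured, and their summed level was 2241 to 2503 TPM in control KD and 1914 to 2171 TPM in *Yy1* KD libraries. Of these markers 1 was called lower and 9 were not called, against 4.20% lower of all genes tested. The called marker was *Tfap2c*, a transcription factor of the early embryo (183 to 126 TPM, log2 fold change -0.54, limma adjusted p = 0.0174). Log2 fold changes were below 0 for 8 and above 0 for 2 of the markers, with a median of -0.18. Cumulus cells surround the oocyte at insemination, and 10 markers of cumulus and granulosa cells summed to 1.54 to 3.46 TPM in control KD and 1.71 to 3.71 TPM in *Yy1* KD libraries. Of these, *Has2*, *Ptx3*, *Tnfaip6* and *Cyp19a1* were at 0 in all 6. *Star* alone passed the filter on low values, at 0.871 to 2.53 TPM in control KD and 0.928 to 1.42 TPM in *Yy1* KD libraries. *Foxl2* was at 0.186 to 0.912 TPM. *Amh* reached 1.16 TPM in *Yy1* KD replicate 1 and *Inha* 1.78 TPM in *Yy1* KD replicate 3. Markers of sperm summed to 0.216 to 0.542 TPM and 0 to 2.26 TPM. Differences are given as *Yy1* KD minus control KD on log2(TPM + 1), which understates the change of genes at low TPM, and a gene was called at a Benjamini-Hochberg adjusted p under 0.05 in limma. The labels do not say that the libraries of a group came from separate cultures, so p-values measure the spread between these libraries, which may be technical.

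*Pgrmc1* (ENSMUSG00000006373.10) lies on the plus strand of the X chromosome, chrX:36598206-36606079 in GRCm38, and has no exon in common with other annotated genes. The control KD libraries had 86.1, 86.7 and 104 TPM of *Pgrmc1*, and the *Yy1* KD libraries had 29.6, 31.3 and 26.6 TPM. Every *Yy1* KD library was below every control KD library, with a wide gap between the groups. Group means were 92.2 ± 9.98 and 29.2 ± 2.38 TPM (SD over 3 libraries), which left 31.7% of the control level. The log2 difference was -1.62 (standard error 0.11) and rested on 245 to 1663 read pairs per library. In morulae, fewer cells that express a gene and less RNA per cell cannot be told apart. Of the 17353 genes tested, 122 had a lower log2 difference than *Pgrmc1*, and the median over all genes was -0.02. With any library left out the difference of *Pgrmc1* stayed between -1.67 and -1.54. These values describe the fall for which *Pgrmc1* was picked and do not test it.

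The bases just before the RefSeq starts of *Pgrmc1* and *Pgrmc2* are shown because the paralogs differed in level between the groups to unlike degrees. They are the 250 bases upstream at chrX:36597943-36598192 (plus strand) and chr3:41083047-41083296 (minus strand) in GRCm38.p6, written 5′ to 3′ in the direction of the gene. Capitals mark the GC box, GGGCGG on either strand.
Pgrmc1: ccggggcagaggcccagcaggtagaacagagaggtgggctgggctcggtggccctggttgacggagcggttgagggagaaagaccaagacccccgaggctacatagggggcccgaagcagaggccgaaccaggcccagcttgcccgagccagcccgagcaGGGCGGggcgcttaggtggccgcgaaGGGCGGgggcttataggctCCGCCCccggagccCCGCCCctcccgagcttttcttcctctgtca
Pgrmc2: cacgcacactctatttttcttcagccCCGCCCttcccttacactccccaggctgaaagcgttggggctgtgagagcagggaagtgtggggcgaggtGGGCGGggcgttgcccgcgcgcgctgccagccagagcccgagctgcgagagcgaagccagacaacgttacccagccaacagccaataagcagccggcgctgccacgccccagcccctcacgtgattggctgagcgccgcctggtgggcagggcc
The *Pgrmc1* stretch holds 4 GC boxes and the *Pgrmc2* stretch holds 2. The GC box was chosen after the promoters were seen, and a link of these counts to the levels was not tested. Of the promoter windows of genes tested, described further on, 60.5% held a GC box. Neither holds the YY1 consensus or its short core, which are spelled out with the other promoters further on.

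*Pgrmc2* (ENSMUSG00000049940.7, chr3:41066326-41083046, minus strand), which encodes the other heme-binding MAPR protein of the endoplasmic reticulum, was at 29.8, 29.8 and 30.3 TPM in control KD and 26.3, 26.0 and 25.2 TPM in *Yy1* KD libraries. The groups did not overlap, but the difference was small. The mean went from 29.99 ± 0.291 to 25.8 ± 0.552 TPM (SD, n = 3 each), 86.1% of the control. The log2 difference of -0.21 (95% interval -0.40 to -0.01) did not pass the test (limma adjusted p = 0.181). The ratio of *Pgrmc1* to *Pgrmc2* TPM was 2.89, 2.91 and 3.42 in control KD libraries and 1.13, 1.21 and 1.06 in *Yy1* KD libraries. Control KD morulae thus held more *Pgrmc1* than *Pgrmc2* mRNA per length, and in *Yy1* KD morulae the pair stood at nearly the same level. The summed level of the pair was 116, 117 and 134 TPM in control KD and 55.9, 57.3 and 51.8 TPM in *Yy1* KD libraries.

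**Figure D1:**
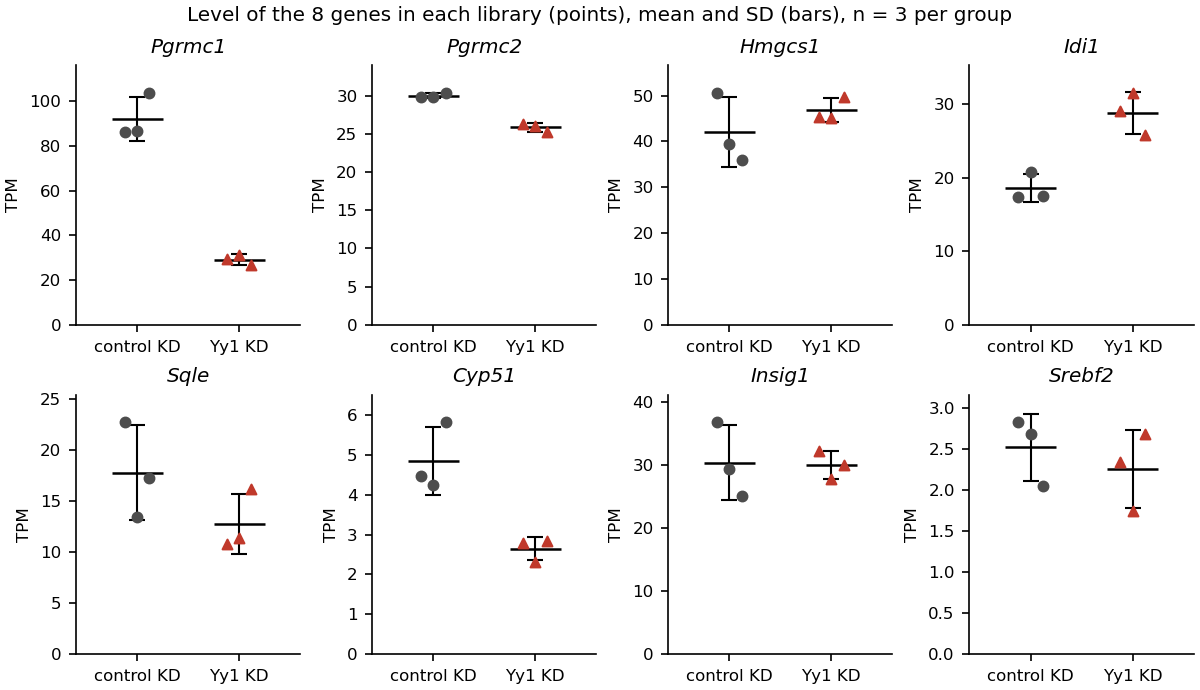
TPM of the 8 genes in each library of control KD and *Yy1* KD morulae (n = 3 each), with the group mean as a bar and the SD as an error bar and an axis of its own for each gene. The *Pgrmc1* values of *Yy1* KD morulae (26.6 to 31.3 TPM) lie far below those of control KD morulae (86.1 to 104 TPM), whereas *Idi1* is higher in all 3 *Yy1* KD libraries and *Insig1*, *Srebf2*, *Hmgcs1* and *Sqle* overlap between the groups.

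Of the 7 genes other than *Pgrmc1*, 1 was called higher in *Yy1* KD morulae (*Idi1*), 0 were called lower and 6 were not called. Over all genes tested, 6.11% were called in limma, 1.92% higher and 4.20% lower. At an unadjusted p under 0.05 in limma, 2 of the 7 were lower (*Pgrmc2* and *Cyp51*) and 1 was higher, against 23.8% of all genes tested in either direction. The limma-voom fit on the recovered read pairs called *Cyp51* lower, and over all its genes it called 809 higher and 1280 lower. The groups did not overlap for 3 of the 7 genes (*Pgrmc2*, *Idi1* and *Cyp51*), against 30.1% of all genes tested. The median log2 difference of the 7 genes was -0.12.

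HMG-CoA synthase, encoded by *Hmgcs1* (ENSMUSG00000093930.2, chr13:119690379-119708260, plus strand), makes HMG-CoA, an early intermediate of the mevalonate pathway. *Hmgcs1* was at 50.5, 39.4 and 36.1 TPM in control KD and 45.4, 45.1 and 49.8 TPM in *Yy1* KD libraries. The groups overlapped, since control KD replicate 1 was the highest of all libraries. The means were 42.0 ± 7.59 and 46.8 ± 2.61 TPM (SD, n = 3 each), with a log2 difference of 0.16 (95% interval -0.16 to 0.49, limma adjusted p = 0.514). It was 0.30 without control KD replicate 1 and 0.064 without control KD replicate 3. *Hmgcs1* shares exonic bases with *Gm48342* on the opposite strand, the longest matching stretch being 462 bases. The authors ignored strand when they counted, so reads in the shared bases cannot be told apart. *Gm48342* itself was at 18.96 and 19.98 TPM on average.

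*Idi1* (ENSMUSG00000058258.14, chr13:8885501-8892451, plus strand), which encodes the isomerase that interconverts the isoprenoid units from which farnesyl chains are built, rose in *Yy1* KD morulae. It was at 17.4, 20.8 and 17.6 TPM in control KD and 29.1, 31.5 and 25.9 TPM in *Yy1* KD libraries. All *Yy1* KD values were above all control KD values. The mean went from 18.6 ± 1.90 to 28.8 ± 2.85 TPM (SD, n = 3 each), 155% of the control, with a log2 difference of 0.61 (standard error 0.12, 95% interval 0.32 to 0.89, limma adjusted p = 0.0387). In each of the 6 fits without 1 library the difference stayed between 0.54 and 0.68 but was not called (limma adjusted p between 0.0634 and 0.125). The transcript matches *Gm13502* at 100% identity over 684 bases and *Gm35570* at 97.7% over 681 bases, and it overlaps *Gm48574* on the opposite strand over 323 bases, so a part of its reads is uncertain. The mean level in control KD and then in *Yy1* KD morulae was 1.74 and 2 TPM for *Gm13502* and 1.19 and 2.48 TPM for *Gm48574*.

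Of the 8 mevalonate pathway enzymes, *Idi1* was the called gene, and the other 7 were not called. The share called higher over all genes tested was 1.92%, and the median log2 difference of the list was -0.15. *Pmvk*, the kinase that makes mevalonate diphosphate, came nearest to the threshold from below (17.6 to 11.5 TPM, log2 difference -0.56, limma adjusted p = 0.0532).

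Squalene epoxidase, encoded by *Sqle* (ENSMUSG00000022351.14, chr15:59315077-59331192, plus strand), adds the first oxygen of the sterol branch. *Sqle* was at 22.7, 13.4 and 17.3 TPM in control KD and 10.8, 11.4 and 16.2 TPM in *Yy1* KD libraries. The groups overlapped through control KD replicate 2 and *Yy1* KD replicate 3. The means were 17.8 ± 4.67 and 12.8 ± 2.96 TPM (SD, n = 3 each), with a log2 difference of -0.44 (95% interval -0.98 to 0.10, limma adjusted p = 0.302). It was -0.26 without control KD replicate 1.

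*Cyp51* (ENSMUSG00000001467.5, chr5:4081145-4104746, minus strand) encodes the sterol demethylase that PGRMC1 is known to bind. Its level was low, at 4.46, 4.24 and 5.81 TPM in control KD and 2.79, 2.31 and 2.83 TPM in *Yy1* KD libraries. All *Yy1* KD values were below all control KD values. The mean went from 4.84 ± 0.849 to 2.64 ± 0.294 TPM (SD, n = 3 each), 54.6% of the control, on 56 to 194 read pairs per library. The log2 difference of -0.67 (95% interval -1.13 to -0.22) was not called (limma adjusted p = 0.0935), whereas limma-voom on the recovered read pairs gave -0.83 and an adjusted p of 0.0416. *Cyp51* shares 166 exonic bases with *Akap9*, which lies on the opposite strand and encodes a kinase anchoring protein. *Akap9* fell from 2.57 to 0.665 TPM (log2 difference -1.10, limma adjusted p = 0.0448), and the part of these shared bases in the *Cyp51* difference was not tested.

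Of the 13 enzymes from squalene to cholesterol, 1 was called and 12 were not, against 6.11% called of all genes tested. The median log2 difference was -0.24. The called gene was *Hsd17b7*, which encodes a sterol ketone reductase. It rose from 1.85, 2.56 and 2.57 TPM to 5.90, 4.63 and 6.64 TPM, a log2 difference of 1.01 (standard error 0.21, limma adjusted p = 0.0405). *Hsd17b7* was not called in any of the 6 fits without 1 library, where the difference lay between 0.90 and 1.13 and the limma adjusted p between 0.0824 and 0.111. *Lbr*, which encodes a nuclear membrane protein with sterol reductase activity, went from 85.1 to 54.0 TPM without overlap (log2 difference -0.65, limma adjusted p = 0.0692). *Msmo1*, *Dhcr7* and *Ebp*, which encode later enzymes of the pathway, had log2 differences of -0.33, -0.62 and -0.53 and limma adjusted p of 0.136, 0.187 and 0.204.

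Over the 21 enzymes of both lists, 2 were called higher (all genes: 1.92%), 0 called lower (all genes: 4.20%) and 19 were not called. At an unadjusted p under 0.05 in limma, 2 were higher and 7 lower, 9 in all, against 23.8% of all genes tested. The limma-voom fit called 2 enzymes higher and 2 lower. Over all its genes it called 809 higher and 1280 lower, more than the 333 and 728 of the main fit. The median log2 difference of the enzymes was -0.16, beside -0.02 for all genes. The 2 enzymes called in limma were higher, whereas 7 of the 9 at an unadjusted p under 0.05 were lower. Log2 differences were above 0 for 3 and below 0 for 5 mevalonate enzymes, and above 0 for 6 and below 0 for 7 later enzymes. Groups did not overlap for 4 enzymes that were higher and 5 that were lower in *Yy1* KD morulae, against 12.9% and 17.2% of all genes tested.

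**Figure D2:**
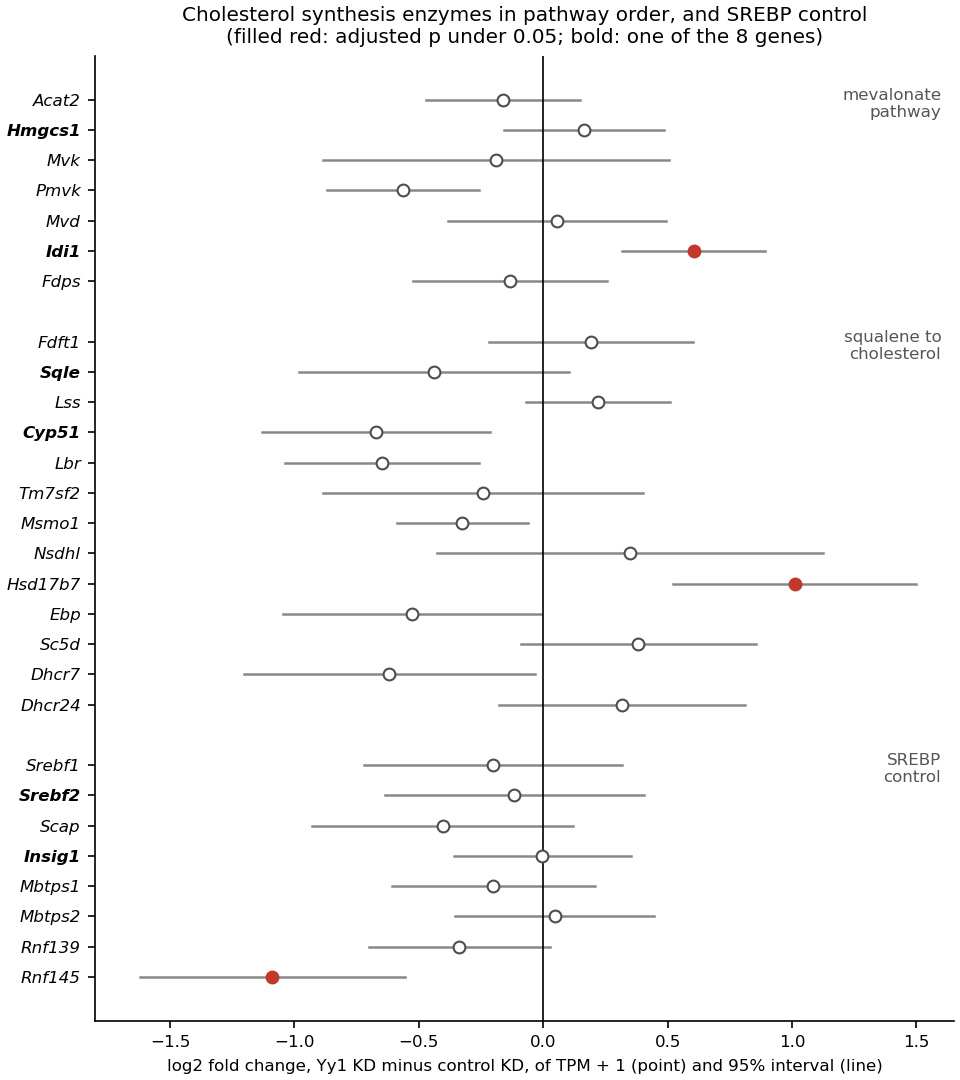
Log2 difference (*Yy1* KD minus control KD, on log2(TPM + 1)) with its 95% interval for cholesterol synthesis enzymes in pathway order and for genes of SREBP activation and sterol sensing. *Idi1* (0.61), *Hsd17b7* (1.01) and *Rnf145* (-1.09) are the called genes. The intervals of *Pmvk*, *Cyp51*, *Lbr*, *Msmo1*, *Ebp* and *Dhcr7*, which were not called, lie below 0, and the remaining intervals cross 0.

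*Srebf2* (ENSMUSG00000022463.8, chr15:82147181-82205379, plus strand), which encodes SREBP2, the activator of the cholesterol synthesis genes, was the least abundant of the 8 genes. It was at 2.82, 2.68 and 2.05 TPM in control KD and 2.34, 1.75 and 2.68 TPM in *Yy1* KD libraries. The groups overlapped over most of their range. The means were 2.52 ± 0.411 and 2.26 ± 0.474 TPM (SD, n = 3 each), with a log2 difference of -0.12 (95% interval -0.64 to 0.41, limma adjusted p = 0.795) on 69 to 199 read pairs per library.

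*Insig1* (ENSMUSG00000045294.11, chr5:28071363-28078662, plus strand) encodes the protein that retains SCAP and is itself a known target of SREBP2. It was at 36.8, 29.3 and 25.1 TPM in control KD and 32.3, 27.7 and 29.99 TPM in *Yy1* KD libraries. The *Yy1* KD values lay inside the control KD range. The means were 30.4 ± 5.93 and 30.02 ± 2.29 TPM (SD, n = 3 each), and the 95% interval of the log2 difference ran from -0.36 to 0.35 (limma adjusted p = 0.993). A copy, *Gm37784*, matches *Insig1* over 189 bases at 98.9% identity.

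Of the 10 genes of SREBP activation and sterol sensing, 9 were tested, of which 1 fell and 8 were not called. Their median log2 difference was -0.20, and 4.20% of all genes tested were called lower. The gene that fell was *Rnf145*, which encodes a ubiquitin ligase of the endoplasmic reticulum that responds to sterols. It was at 3.75, 3.27 and 4.27 TPM in control KD and 0.829, 1.42 and 1.504 TPM in *Yy1* KD libraries. The mean went from 3.76 ± 0.499 to 1.25 ± 0.369 TPM (SD, n = 3 each), 33.3% of the control, with a log2 difference of -1.09 (standard error 0.22, limma adjusted p = 0.0417). The limma-voom fit gave *Rnf145* a log2 difference of -1.65. None of the 6 fits without 1 library called *Rnf145*, with differences of -1.17 to -0.95 and limma adjusted p between 0.0791 and 0.138. *Rnf139*, which encodes another ligase of the endoplasmic reticulum, had a log2 difference of -0.34 with groups that did not overlap (limma adjusted p = 0.239). *Scap*, the escort of SREBP2, was at 7.70 and 5.49 TPM on average (log2 difference -0.40, limma adjusted p = 0.323). *Mbtps2*, the X-linked protease that releases SREBP2, was at 10.4 and 10.8 TPM (log2 difference 0.05, limma adjusted p = 0.903) and contains *Yy2* within its bounds. *Insig2* did not pass the filter on low values.

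Uptake, transport, storage and export of cholesterol were covered by 20 genes, of which 13 were tested. Of these, 1 rose and 12 were not called, against 1.92% higher of all genes tested. The median log2 difference was -0.13. *Osbp*, which encodes an oxysterol-binding protein that moves cholesterol between membranes, rose from 32.9, 40.7 and 34.6 TPM to 54.7, 53.8 and 49.9 TPM (log2 difference 0.54, standard error 0.10, limma adjusted p = 0.0350). Without any 1 library the *Osbp* difference stayed between 0.48 and 0.63, and the limma adjusted p lay between 0.0524 and 0.117. *Sqle*, *Dhcr7* and *Ebp* shared an order of the libraries, with control KD replicate 2 the lowest of its group and *Yy1* KD replicate 3 the highest of its group. *Por* and *Scap* had this order too, and the share of all genes with it was not counted. These are the libraries with the most and the fewest read pairs, although *Yy1* KD replicate 2 (12865988) was close to replicate 3 (11793509). *Xist*, the RNA of the inactive X, had the same order (28.2 TPM in control KD replicate 2 and 58.5 TPM in *Yy1* KD replicate 3). The Y-linked *Ddx3y* (30.5 and 3.55 TPM) and *Eif2s3y* had the reverse order, and *Uty* and *Kdm5d* had neither. The parts of depth and of embryo sex in that order were not tested.

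The MAPR family and its partners comprise 11 genes, all tested. Apart from *Pgrmc1*, 2 rose and 8 were not called, against 1.92% higher and 4.20% lower of all genes tested. The median log2 difference was 0.14. *Cyb5d2*, also called neuferricin, is a heme-binding MAPR gene. It rose from 5.09, 4.35 and 4.82 TPM to 13.5, 8.93 and 11.1 TPM. Its means were 4.75 ± 0.375 and 11.2 ± 2.30 TPM (SD, n = 3 each), and the log2 difference was 1.07 (standard error 0.18, limma adjusted p = 0.0260). *Cyb5b*, which encodes the cytochrome b5 of the outer mitochondrial membrane, rose from 24.9, 22.4 and 23.0 TPM to 30.2, 40.7 and 40.7 TPM (log2 difference 0.63, standard error 0.14, limma adjusted p = 0.0465). In the 6 fits without 1 library, *Cyb5d2* was called in 1, with limma adjusted p between 0.0493 and 0.0890. *Cyb5b* was likewise called in 1 of these fits, with limma adjusted p between 0.0346 and 0.139.

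*Por*, the reductase that passes electrons to P450 enzymes, was at 54.7, 34.2 and 62.3 TPM in control KD and 27.3, 28.3 and 41.7 TPM in *Yy1* KD libraries. The groups overlapped, and the log2 difference of -0.60 was not called (limma adjusted p = 0.213). *Nenf*, the secreted MAPR gene, was at 2.17 and 3.19 TPM on average on 7 to 19 read pairs per library (limma adjusted p = 0.698). *Tmem97*, the sigma receptor gene whose protein is known to bind PGRMC1, had a log2 difference of -0.21 (limma adjusted p = 0.336). *Serbp1*, whose protein is also a known partner of PGRMC1, was at 181 and 185 TPM (log2 difference 0.03, limma adjusted p = 0.825). The 6 progesterone receptor genes, nuclear and membrane-bound, were all under 1 TPM in every library, and *Pgr*, the nuclear receptor, was at 0 in all 6.

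**Figure D3:**
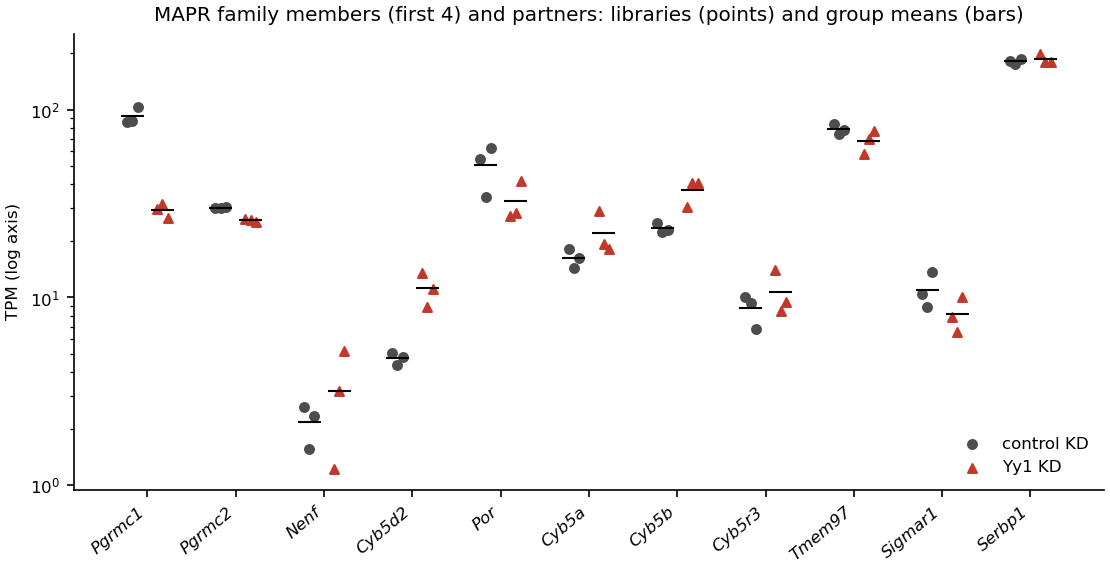
TPM (log scale) of the MAPR family genes and partners of PGRMC1 in each control KD and *Yy1* KD library. *Pgrmc1* (92.2 to 29.2 TPM) and *Cyb5d2* (4.75 to 11.2 TPM) lie at opposite ends of the differences within the family, and *Serbp1* (181 and 185 TPM) overlaps between the groups.

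Farnesyl diphosphate, the last product of the mevalonate pathway, also feeds the isoprenoid branch, in which 10 genes were tested, 2 fell and 8 were not called, with a median log2 difference of -0.13. *Ggps1*, which encodes the synthase of geranylgeranyl diphosphate, fell from 9.62, 6.71 and 7.66 TPM to 2.37, 2.37 and 1.71 TPM. The *Ggps1* mean went from 7.997 ± 1.48 to 2.15 ± 0.379 TPM (SD, n = 3 each), 26.9% of the control, with a log2 difference of -1.51 (standard error 0.20, limma adjusted p = 0.0135). Of the 6 fits without 1 library, 4 called *Ggps1*, and the limma adjusted p was 0.0582 without control KD replicate 1 and 0.0619 without control KD replicate 3. *Ggps1* has exonic bases in common with *Arid4b*, which was at 12.2 and 12.8 TPM. *Fnta*, which encodes the alpha subunit common to farnesyltransferase and a related prenyltransferase, fell from 51.4, 54.0 and 51.9 TPM to 35.0, 34.8 and 39.7 TPM (log2 difference -0.51, standard error 0.09, limma adjusted p = 0.0260). *Fnta* was called in 1 of the 6 fits without 1 library, with limma adjusted p between 0.0437 and 0.0916. *Coq2*, an enzyme of ubiquinone synthesis, went from 2.30 to 0.448 TPM on 2 to 60 read pairs per library (log2 difference -1.18, limma adjusted p = 0.0648). Over the 85 genes tested in all pathway lists without *Pgrmc1*, the lists of heme and of fatty acid genes included, 6 rose, 4 fell and 75 were not called, against 1.92% higher and 4.20% lower of all genes tested, and the median log2 difference was -0.12.

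Ordered by level per length, the 8 genes changed places between the groups. In control KD morulae *Pgrmc1* stood above all others, followed by *Hmgcs1*, *Insig1* and *Pgrmc2*, whose ranges overlapped from each to the next. *Idi1* and *Sqle*, which overlapped with each other, came after them, then *Cyp51* and last *Srebf2*. In *Yy1* KD morulae *Hmgcs1* was highest, and *Insig1*, *Pgrmc1*, *Idi1* and *Pgrmc2* followed with ranges that overlapped from each to the next. *Sqle* was below these, and *Cyp51* and *Srebf2* overlapped at the bottom.

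*Pgrmc1* is X-linked, and the sexes of the pooled embryos could differ between libraries. *Xist*, the RNA of the inactive X, was at 49.7, 28.2 and 84.2 TPM in control KD and 26.4, 30.1 and 58.5 TPM in *Yy1* KD libraries, and the groups overlapped (log2 difference -0.44, limma adjusted p = 0.597). The Y-linked helicase gene *Ddx3y* fell from 18.1, 30.5 and 17.8 TPM to 5.04, 5.14 and 3.55 TPM (log2 difference -2.02, limma adjusted p = 0.0126). *Uty*, also Y-linked, had a log2 difference of -0.88 (limma adjusted p = 0.0948), *Eif2s3y* one of -0.51 with groups that overlapped (limma adjusted p = 0.316), and *Kdm5d* did not pass the filter on low values. The part of sex in the *Pgrmc1* difference was not tested. The median log2 difference was -0.0021 over the 532 genes tested on the X chromosome and -0.03 over the 16771 genes on numbered chromosomes. Of the genes on the X chromosome, 1 had a lower log2 difference than *Pgrmc1*.

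The genes tested next to *Pgrmc1* on the X chromosome, 3 on each side, were named by position after their values had been seen. *Akap17b*, whose nearer end lies 10108 bases from the start of *Pgrmc1*, had a log2 difference of -0.24 (limma adjusted p = 0.505). *Lonrf3* on the other side rose from 18.3 to 26.4 TPM (log2 difference 0.51, limma adjusted p = 0.0350). *Dock11*, *Gm25047*, *Rpl7-ps9* and *Slc25a43* had log2 differences of 0.29, 1.06, 0.15 and -0.16, and none of these was called (limma adjusted p of 0.6005, 0.326, 0.614 and 0.819). None of the 6 neighbours had a difference near that of *Pgrmc1*.

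Promoter windows of 300 bases, from 250 before to 50 after the RefSeq start, were found for 7 of the 8 genes and not for *Sqle*. They were searched on both strands for the YY1 consensus GCCATNTT, its short core GCCAT, the sterol response element TCACNCCAC, the NF-Y box CCAAT and the GC box GGGCGG. Every match to the consensus is also a match to the short core, and the short core and the NF-Y box can overlap on opposite strands. Of all 32851 windows, 6.05% held the consensus, 40.5% the short core, 1.24% the sterol response element, 37.4% the NF-Y box and 35.7% the GC box. Of the windows of genes tested here, 8.61%, 39.2%, 1.21%, 38.1% and 60.5% held them. A match is a run of letters and not a bound site.

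Among the 7 genes the consensus was found in *Srebf2* alone, the short core in *Hmgcs1*, *Idi1* and *Srebf2*, the sterol response element in *Hmgcs1*, the NF-Y box in 6 genes and the GC box in all 7. The window of *Pgrmc1* was the one without an NF-Y box. The *Srebf2* consensus, the *Idi1* short core and the *Hmgcs1* sterol response element are printed with their flanks, 30 bases each, with the match in capitals. The short core of *Hmgcs1*, from -179 to -175, is not printed. *Cyb5d2* is added as the called MAPR gene with a consensus match. The stretches lie at chr15:82147256-82147285 (*Srebf2*, plus strand), chr11:72796025-72796054 (*Cyb5d2*, minus strand), chr13:8885577-8885606 (*Idi1*, plus strand) and chr13:119690204-119690233 (*Hmgcs1*, plus strand) in GRCm38.p6.
Srebf2, YY1 consensus on the other strand: ggcgcagctcaAACATGGCggcggttggca
Cyb5d2, YY1 consensus: ccgcctctgccGCCATCTTtgttgagggcg
Idi1, YY1 short core: atggtccaaggtGCCATtggctggcgaccg
Hmgcs1, sterol response element: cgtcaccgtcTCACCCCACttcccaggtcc
The *Srebf2* match covers positions -2 to 6 around the start, and the *Cyb5d2* match lies from -204 to -197. Beside these letters, *Srebf2* was not called and *Cyb5d2* and *Idi1* were called higher. The short core also stood in windows of *Ggps1* and *Rnf145*, which were called lower, and *Rnf145* had several windows. The windows of *Hsd17b7*, *Osbp* and *Cyb5b*, called higher, and of *Akap9*, called lower, held neither the consensus nor the short core. Not every called gene was covered: no window was found for *Fnta*, and *Hmox1* and *Scd1*, taken up further on, were not searched. *Hmgcs1*, with the sterol response element from -137 to -129, was not called.

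**Figure D4:**
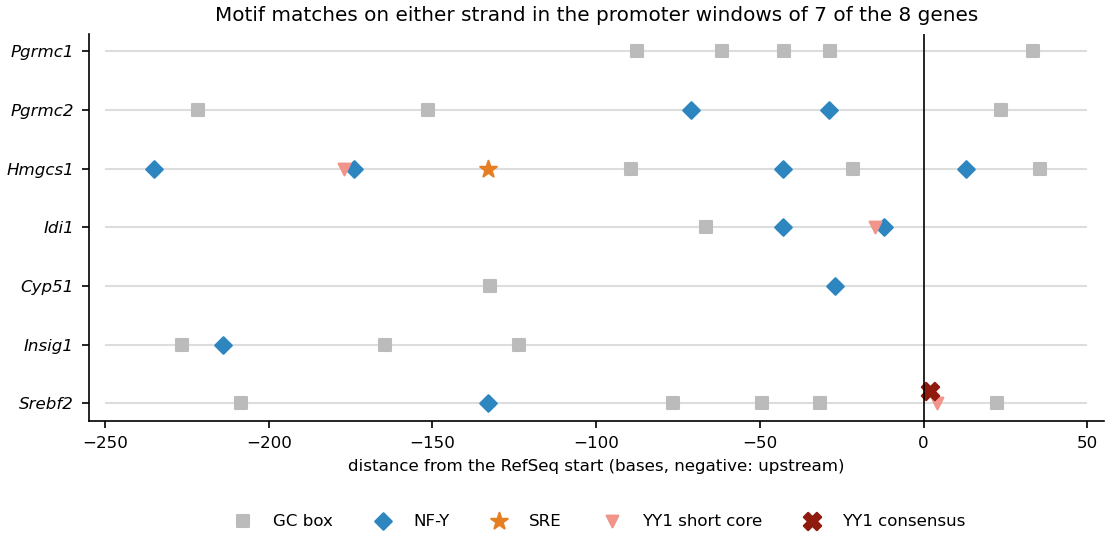
Positions of motif matches relative to the RefSeq start (bases, 250 before to 50 after) in the promoter windows of the 7 genes with an entry. *Pgrmc1* shows GC boxes and no other match, and the YY1 consensus appears in *Srebf2* alone, at -2 to 6.

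The genes with the profile most like that of *Pgrmc1* over the 6 libraries were sought among 6285 genes with a mean of at least 10 TPM, by the root mean square difference of log2(TPM + 1) after each gene was centred on its own mean. The smallest differences were those of *Exosc2* (0.128), a subunit of the RNA exosome, *Eef2kmt* (0.128), a methyltransferase of an elongation factor, *Zfr* (0.132), a zinc finger RNA-binding protein, *Gigyf1* (0.144), an adaptor in translational repression, and *Vps41* (0.156), a subunit of the HOPS tethering complex. Their log2 differences between the groups were -1.48, -1.81, -1.51, -1.62 and -1.57. The measure rests mostly on the difference between the groups, which all 6 genes share in size. *Zfr* was at 95.5 to 102 TPM in control KD and 29.7 to 36.6 TPM in *Yy1* KD libraries, a range close to that of *Pgrmc1*. None of these genes belongs to the lists of the cholesterol pathway.

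**Figure D5:**
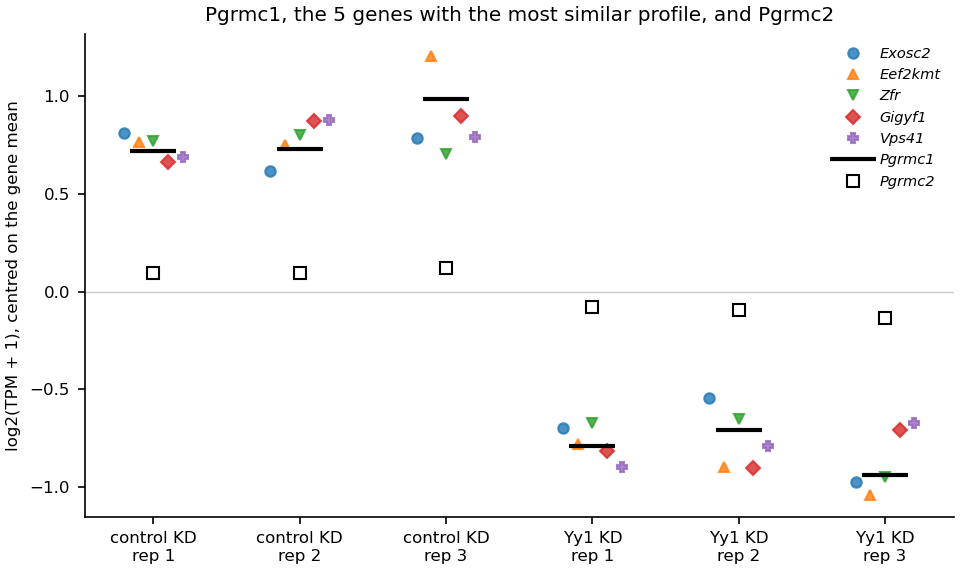
Log2(TPM + 1) centred on each gene's mean, in each of the 6 libraries, for *Pgrmc1* (horizontal bars), the 5 genes with the most similar profile and *Pgrmc2* (open squares). The similar genes stay close to the bars in every library (root mean square differences of 0.128 to 0.156), whereas *Pgrmc2* stays near 0 in both groups.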

How the data were processed

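RNA-seq was made with the SMART-Seq Stranded kit from 3 control KD and 3 *Yy1* KD pools of morulae. The authors trimmed 3 adaptor bases of read 2 (Trim Galore 0.6.7), aligned to mm10 (HISAT2 2.2.1), removed ribosomal reads (bedtools), counted pairs over GENCODE vM25 with featureCounts 2.0.1, sharing pairs among overlapping genes and ignoring strand, and deposited TPM. The 8 genes and the gene lists were chosen with earlier results of these data known, and list members were written from general knowledge.

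Genes at 1 TPM or more in at least 3 libraries were fitted with limma 3.58.1 (R 4.3.3) on log2(TPM + 1), with a variance trend, two-sided p-values and Benjamini-Hochberg adjustment over the 17353 genes. The test was checked on simulated data. TPM is not a count, so no count model was used for the main results. Genes named are the 8, called genes of each list, *Scap*, *Mbtps2*, *Yy1*, *Xist* and 4 Y-linked genes, and the 5 genes nearest to *Pgrmc1* in profile. Any other gene was picked with its values known. Some listed genes, counted in their lists, are not reported here. The GC box and the short core were added after promoters were seen. Coordinates come from GENCODE vM21 (55104 of 55364 identifiers matched) and promoters from RefSeq (GRCm38.p6). TPM times exon length gave back read pairs; of values under 20 pairs, 80.6% to 81.6% came within 0.02 of a whole number. Copies were sought with BLAST 2.17.0 (95% identity, 100 bases). Alternatives were 9 other settings, each library left out, and, added after the data were seen, limma-voom on recovered pairs.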

Additional observations from a re-analysis of the deposited data

How the results depend on the processing

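Under all 16 alternatives *Pgrmc1* stayed between -1.67 and -1.54, but it was picked for this fall, so its direction was not at stake. *Pgrmc2*, *Hmgcs1* and *Sqle* kept their direction in these fits and were not called. Without a library *Hmgcs1* (0.16) ranged from 0.064 to 0.30 and *Sqle* (-0.44) from -0.62 to -0.26. *Idi1* (0.61) lost its call without the filter on low values (0.61, adjusted p = 0.0779), without the variance trend (0.61, adjusted p = 0.0737), with the replicate block (0.61, adjusted p = 0.0718) and without each library in turn (0.54 to 0.68). *Cyp51* gained a call in limma-voom (-0.83) and, like *Srebf2*, gave no value at a mean of 5 TPM or more. *Insig1*, near 0, was above 0 with median-ratio scaling (0.022), quantile normalization (0.073) and limma-voom (0.041), settings that moved the median of all genes from -0.025 to -0.0028, 0.021 and -0.0100, and it changed sign without a library (-0.13 to 0.14). *Srebf2* ranged from -0.22 to 0.0012 without a library, the latter without *Yy1* KD replicate 2. *Mbtps2* ranged from -0.056 to 0.17.

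Of all genes, 333 were called higher and 728 lower. These counts were 77 and 270 without the filter, 132 and 382 without the variance trend, 69 and 218 with the replicate block, 809 and 1280 in limma-voom, and 22 to 92 and 53 to 326 without a library, lowest without control KD replicate 3. Of the pathway lists, 6 genes were called higher and 4 lower. These were 0 and 2 without the filter, 2 and 2 without the variance trend, 7 and 9 in limma-voom, and 0 to 2 and 0 to 5 without a library; the replicate block called 1 higher. The cause was not tested. Same-numbered libraries correlated in their deviations from the group means at -0.0039, 0.032 and 0.075, so the numbers were not taken as pairs. *Srebf2*, *Cyp51* and *Nenf* rested on at most 199, 194 and 19 read pairs in any library.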

Other observations

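PGRMC1 carries heme, and the genes that make and break down heme were therefore read as a group of 12, all tested. Among them 1 rose and 11 were not called (median log2 difference 0.07), against 1.92% higher of all genes tested. *Hmox1*, the inducible heme oxygenase, rose from 18.1, 25.9 and 25.6 TPM to 34.1, 51.6 and 48.9 TPM (log2 difference 0.92, standard error 0.20, limma adjusted p = 0.0492). It was called in 1 of the 6 fits without 1 library, with limma adjusted p between 0.0456 and 0.142. It also lost its call with a pseudocount of 0.1 (adjusted p = 0.0518), robust variances (0.0521), no variance trend (0.0880) and no filter (0.115). *Blvra* and *Blvrb*, the biliverdin reductases that act after heme oxygenase, had log2 differences of 0.73 and 0.44 with groups that did not overlap, and were not called (limma adjusted p of 0.0940 and 0.174). *Alas1*, which starts heme synthesis, had a log2 difference of -0.12 (limma adjusted p = 0.590).

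Fatty acid synthesis, which SREBP proteins also control, was covered by 11 genes, of which 10 were tested. Among these, 1 fell and 9 were not called (median log2 difference -0.15), against 4.20% lower of all genes tested. The number called lower was 0 without the filter or the variance trend, 2 with the replicate block, and 3 at a mean of 5 TPM or more, with median-ratio scaling and in limma-voom. It was 3 without *Yy1* KD replicate 3 and 0 in the other fits without 1 library. *Scd1*, a stearoyl-CoA desaturase, fell from 59.5, 49.3 and 72.2 TPM to 21.9, 24.98 and 36.0 TPM (log2 difference -1.11, standard error 0.21, limma adjusted p = 0.0339). It was called in 1 of the 6 fits without 1 library, with limma adjusted p between 0.0380 and 0.110. *Scd2*, its neighbour and paralog, was at 168, 109 and 201 TPM in control KD and 50.3, 48.6 and 89.5 TPM in *Yy1* KD libraries (log2 difference -1.34, limma adjusted p = 0.0503). *Elovl5*, a fatty acid elongase, had a log2 difference of -0.89 (limma adjusted p = 0.0519). *Fasn*, the fatty acid synthase, was at 85.4 and 97.3 TPM with groups that overlapped (log2 difference 0.18, limma adjusted p = 0.494). As for *Sqle*, control KD replicate 2 was the lowest of its group for *Scd1* and *Scd2*, and *Yy1* KD replicate 3 the highest of its group. The share of all genes with that order was not counted.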
